A study of Mus musculus with 21 samples.

Results

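The expression of 9 genes of the phagocyte NADPH oxidase and of the antioxidant response was examined in mouse forebrain. The 5 oxidase genes were Cybb, Cyba, Ncf1, Ncf4 and Rac2, and the 4 antioxidant genes were Hmox1, Nqo1, Gclm and Slc7a11. They were chosen by symbol, with earlier results of these data known, and matched to Ensembl identifiers among the 55401 genes of the count table. All 9 passed the filter on low counts in each comparison.

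Poly(A) RNA was sequenced from 21 mice in 6 groups. The parental lines E2H, E3H and E4H (3 mice each) were homozygous for human APOE2, APOE3 or APOE4 in place of mouse Apoe and carried no tau transgene. The mice of PS/E4H, PS/E3H and PS/E2H (4 per group) matched these lines in APOE and were heterozygous for the PS19 transgene, human tau with the P301S mutation under the mouse prion promoter. Parental mice were 9 to 10 months old, whereas PS19 mice were killed when both hindlimbs were paralysed. They came from crosses with a tau line kept on a B6/C3H background, so tau genotype, paralysis, age at death and strain background cannot be told apart. Nothing in the sources used here ties mice to litters, and values of single mice are given below in the order of the mouse numbers.

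Libraries held 59265459 to 75932183 counts, with a median of 63751715. In 17 libraries Xist, an RNA of female cells, had more counts than the Y-linked gene Ddx3y. Ddx3y had more counts in 4 libraries, namely E4H 3, PS/E2H 2, PS/E4H 1 and PS/E4H 4. The methods of the study describe the mice as male apart from a few females in E4H, PS/E2H and PS/E4H, in the same numbers per group as the libraries with more Ddx3y, so the libraries and the stated sexes are opposite. Because Cybb is X-linked, the counts of called genes below were repeated without the 4 libraries with more Ddx3y and stayed at 2 of 9 for PS/E2H mice and 6 of 9 for PS/E4H mice.

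The phagocyte NADPH oxidase passes electrons from NADPH across a membrane to oxygen and releases superoxide. Its catalytic core is the pair of gp91phox, encoded by Cybb, and p22phox, encoded by Cyba, which a Rac GTPase and cytosolic subunits, among them p47phox (Ncf1) and p40phox (Ncf4), join on activation. In brain the complex is best known from microglia. Hmox1, Nqo1, Gclm and Slc7a11 are textbook targets of NRF2, a transcription factor that KEAP1 holds low until oxidants or electrophiles release it.

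All 5 oxidase genes were called higher on the APOE4 background, by the limits given below. On the APOE3 background 3 of the 5 were called (Cybb, Cyba and Ncf1), and on the APOE2 background 2 (Ncf1 and Rac2). Cybb and Cyba missed the limit on the APOE2 background, with edgeR adjusted p = 0.0513 and 0.0644. Cybb had the largest change of the 9 genes on each background. None of the 9 genes passed a test of a difference in change between backgrounds. Hmox1 was called on the APOE4 background alone and passed on the APOE3 background without the limit on fold. Nqo1 passed the test on none, and Gclm changed by 1.17-fold at most. The fitted difference from the parental line was positive for all 9 genes on each background. A gene was called where the Benjamini-Hochberg adjusted p of edgeR's quasi-likelihood test over all genes was under 0.05 and the fold change was at least 2. Of the 9 genes, 2 were called higher in PS/E2H mice, against 0.451% of the 20617 genes tested. In PS/E3H mice 3 were called higher, against 1.2% of 21251 genes, and in PS/E4H mice 6 were called higher, against 2.4% of 20844 genes. Without the limit on fold, 2, 4 and 8 of the 9 were higher, against 0.669%, 3.35% and 8.62% of genes.

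Every PS19 mouse lay above every parental mouse for 5 of the 9 genes in the APOE2 pair of groups, against 6.47% of genes tested. The same held for 4 genes in the APOE3 pair, against 10.9%, and for 7 genes in the APOE4 pair, against 14.2%. The median log2 fold change of the 9 genes was 0.79, 1.04 and 1.56 on the APOE2, APOE3 and APOE4 backgrounds, beside medians over all genes of -0.015, -0.0043 and -0.0023. In bulk tissue a higher level from more cells of a type and one from more RNA per cell cannot be told apart.

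**Figure D1:**
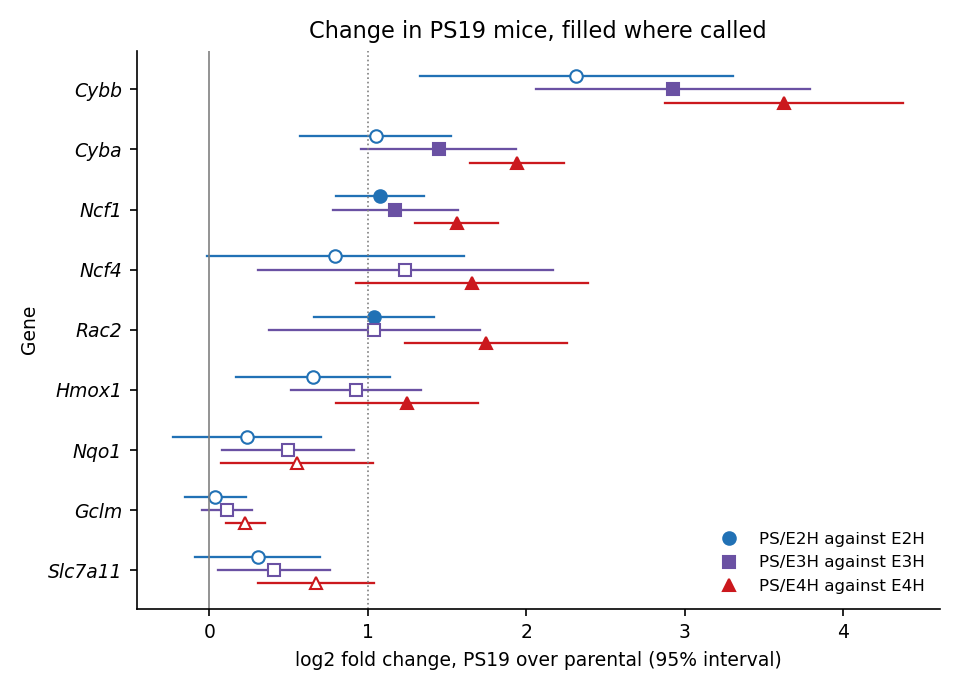
Log2 fold change (x axis) of each of the 9 genes (y axis) in PS19 mice over the parental line, with 95% intervals from edgeR; circles, squares and triangles stand for the APOE2, APOE3 and APOE4 backgrounds, and filled symbols mark called genes. The dotted line is the 2-fold limit, and Cybb in PS/E4H mice lies farthest right at 3.63.

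Cybb, on chromosome X from 9435252 to 9487771 (minus strand, GRCm38), encodes gp91phox, the subunit that carries the electrons. Its promoter window is shown because Cybb changed most. The bases from 250 before to 30 after the RefSeq start (chrX:9469295-9469574, minus strand, RefSeq on GRCm38.p6) lie inside the longer gene model of the annotation. Capitals mark the core letters of 2 transcription factor motifs, AP-1 (TGANTCA) at -139 and PU.1 (GAGGAA), read on the opposite strand, at +10.
Cybb: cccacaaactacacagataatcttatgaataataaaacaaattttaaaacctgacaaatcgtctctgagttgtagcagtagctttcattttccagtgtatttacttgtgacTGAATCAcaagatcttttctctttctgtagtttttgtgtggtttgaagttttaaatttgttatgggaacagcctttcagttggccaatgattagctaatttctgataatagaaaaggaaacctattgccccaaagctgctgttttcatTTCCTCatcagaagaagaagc

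Ncf1, another oxidase gene that rose, is shown for comparison over the same bases (chr5:134229596-134229875, minus strand). It held none of the 4 motifs searched, so no base is in capitals.
Ncf1: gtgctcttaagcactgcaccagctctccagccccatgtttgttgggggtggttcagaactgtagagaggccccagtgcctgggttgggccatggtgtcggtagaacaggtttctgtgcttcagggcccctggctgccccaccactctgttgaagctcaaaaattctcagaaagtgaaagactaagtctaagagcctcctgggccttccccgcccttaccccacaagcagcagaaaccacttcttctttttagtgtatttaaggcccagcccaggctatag
The motifs were searched on both strands in windows of the same kind for all genes. Over 32851 windows, TGANTCA occurred in 7.81% and GAGGAA in 28.3%. The window of Cyba held none of the 4 motifs, and Ncf4 and Rac2 have no window in the table used.

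Expression of Cybb, in TMM-normalized CPM (counts scaled to library size), was 0.571, 0.644 and 1.12 in the E2H mice and 3.04, 2.52, 7.39 and 2.65 in the PS/E2H mice. E3H mice had 0.979, 0.910 and 0.847 CPM and PS/E3H mice 2.70, 7.86, 7.54 and 10.04 CPM. On the APOE4 background, Cybb was at 0.478, 0.638 and 0.434 CPM in E4H mice and at 8.70, 6.69, 6.81 and 3.40 CPM in PS/E4H mice. On each background every PS19 mouse lay above every parental mouse, with 1 high mouse in PS/E2H and 1 low mouse each in PS/E3H and PS/E4H. The log2 fold change was 3.63 ± 0.34 (SE) in PS/E4H mice (12.4-fold, adjusted p = 0.000197) and 2.93 ± 0.39 in PS/E3H mice (7.61-fold, adjusted p = 0.00448). In PS/E2H mice it was 2.32 ± 0.44 (4.98-fold), which missed the threshold at adjusted p = 0.0513 and passed it with DESeq2.

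Cyba (chromosome 8, 122424776 to 122432930, minus strand) encodes p22phox, the partner that holds gp91phox stable in the membrane. Its levels were 4.85, 8.04 and 4.997 CPM in E2H mice and 11.8, 13.6, 14.3 and 9.76 CPM in PS/E2H mice. In the APOE3 pair they were 5.81, 5.08 and 4.04 CPM against 8.68, 15.4, 13.9 and 16.9 CPM. In the APOE4 pair they were 3.85, 3.89 and 5.20 CPM against 17.6, 16.4, 16.6 and 15.6 CPM. PS19 and parental mice did not overlap on any background, and the PS/E4H mice lay close together. Cyba rose by a log2 fold change of 1.94 ± 0.13 (SE) in PS/E4H mice (adjusted p = 4.37e-05) and of 1.45 ± 0.22 in PS/E3H mice (adjusted p = 0.00833). The value in PS/E2H mice, 1.05 ± 0.21, was not called at adjusted p = 0.0644. Without E2H 2, the parental mouse at 8.04 CPM, it was 1.33 with adjusted p = 0.026. That was the only 1 of 7 fits with a mouse left out that passed. Over these fits the value went down to 0.92 and the edgeR adjusted p up to 0.289.

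Ncf1 (chromosome 5, 134220053 to 134229625, minus strand), which encodes the organizer subunit p47phox, was the only one of the 9 called on all 3 backgrounds. It was at 7.80, 8.31 and 7.49 CPM in E2H mice and at 16.8, 17.3, 17.7 and 14.6 CPM in PS/E2H mice. E3H mice had 7.26, 7.84 and 7.23 CPM and PS/E3H mice 12.1, 15.5, 18.2 and 22.1 CPM. E4H mice had 7.04, 7.15 and 5.81 CPM and PS/E4H mice 21.7, 18.8, 18.02 and 20.1 CPM. The parental mice kept to a narrow band, and no PS19 mouse reached into it. Log2 fold changes were 1.08 ± 0.12 (SE; adjusted p = 0.00588), 1.17 ± 0.18 (adjusted p = 0.00833) and 1.56 ± 0.12 (adjusted p = 6.4e-05) on the APOE2, APOE3 and APOE4 backgrounds. Exons of Ncf1 overlap those of Gtf2ird2 on the opposite strand, and whether counting used strand is not given in the sources used here, so its counts may include reads of that gene.

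Rac2 (chromosome 15, 78559167 to 78572783, minus strand) encodes the Rac GTPase of blood and immune cells. Its levels were 2.75, 2.98 and 2.995 CPM in E2H mice and 6.15, 5.41, 7.11 and 5.29 CPM in PS/E2H mice, with no overlap. E3H mice had 3.35, 2.79 and 3.26 CPM, and PS/E3H mice 3.18, 7.10, 6.30 and 9.53 CPM, where the mouse PS/E3H 1 fell within the parental range. E4H mice had 1.51, 2.27 and 2.89 CPM and PS/E4H mice 9.13, 6.89, 6.23 and 7.58 CPM. The groups of the APOE4 pair stood well apart. Rac2 rose by 1.75 ± 0.23 (log2, SE) in PS/E4H mice (adjusted p = 0.00141) and by 1.04 ± 0.17 in PS/E2H mice (adjusted p = 0.0291), while 1.04 ± 0.30 in PS/E3H mice gave adjusted p = 0.0732.

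Ncf4 (chromosome 15, 78244801 to 78262580, plus strand) encodes p40phox, which binds a phosphoinositide of phagosomes, and it was among the lowest of the 9 genes. It was at 1.33, 0.801 and 0.566 CPM in E2H mice and at 1.12, 1.45, 2.22 and 1.47 CPM in PS/E2H mice. The APOE3 pair had 1.24, 1.13 and 0.639 CPM against 0.933, 2.37, 2.66 and 3.60 CPM. In both pairs the groups overlapped. E4H mice, at 0.552, 0.718 and 0.895 CPM, lay below all PS/E4H mice, at 3.61, 1.78, 1.79 and 1.94 CPM. Ncf4 was called in PS/E4H mice only, at a log2 fold change of 1.66 ± 0.33 (SE; adjusted p = 0.00923), beside 0.79 ± 0.36 (adjusted p = 0.481) in PS/E2H and 1.24 ± 0.42 (adjusted p = 0.119) in PS/E3H mice.

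**Figure D2:**
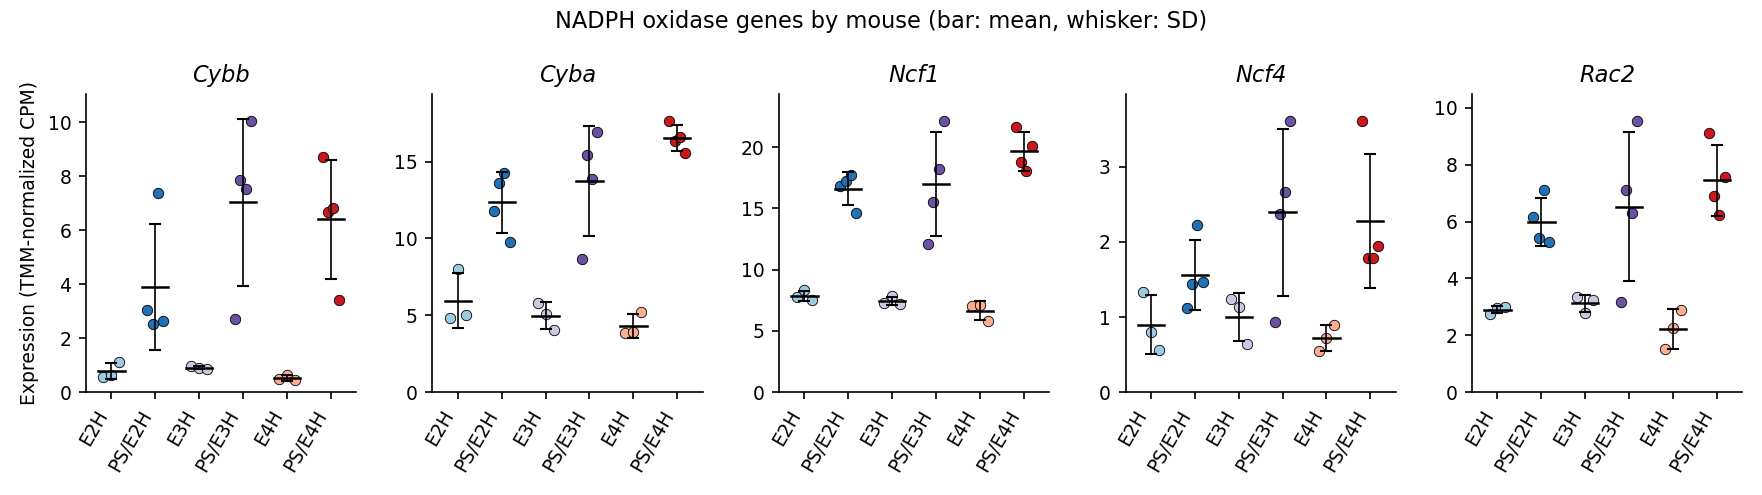
TMM-normalized CPM (y axis, starting at 0) of the 5 oxidase genes in the 6 groups (x axis); points are mice, bars are group means and whiskers are SD. Ncf1 shows the tightest parental groups, between 5.81 and 8.31 CPM, and the low PS/E3H mouse at 2.70 CPM of Cybb is also the lowest of its group for the other genes.

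Some calls rested on single mice. In the APOE2 pair Rac2 was no longer called without E2H 1, E2H 2, E2H 3, PS/E2H 1 or PS/E2H 3 (adjusted p from 0.063 to 0.152), which left 1 called gene of the 9 in all of these but E2H 2, where Cyba was called instead. In the APOE3 pair, 6 genes were called without PS/E3H 1, with Ncf4, Rac2 and Hmox1 added, 2 without E3H 1 and 1 without E3H 3. In the APOE4 pair 6 genes were called whichever mouse was left out. PS/E3H 1 was the lowest PS/E3H mouse for each of the 5 oxidase genes.

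Neutrophils use the same oxidase, and their markers were high in some of the same mice. The 8 neutrophil markers summed to 0.155 to 38.3 CPM in PS/E3H mice against 0.585 to 1.63 CPM in E3H mice, and to 0.986 to 20.8 CPM in PS/E4H mice against 0.339 to 0.439 CPM in E4H mice. In the APOE2 pair the sums were 1.28 to 6.19 CPM and 0.609 to 8.91 CPM. S100a8 was highest in PS/E3H 4, at 9.003 CPM, and in PS/E4H 1, at 4.42 CPM. These mice also had the highest Cybb, Cyba, Ncf1, Ncf4, Rac2 and Hmox1 of their groups. Of the 8 markers 4 passed the filter in each pair, none was at 0 in all mice, and 1 was called, in PS/E4H mice. Without PS/E3H 4 the count of called genes stayed at 3, and without PS/E4H 1 it stayed at 6, with Cybb at 2.71 and 3.45 (log2).

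Per length, in FPKM, Cyba was the most abundant oxidase gene, and in parental mice Cybb was the least. In E4H mice the levels were 3.82 ± 0.66 FPKM (SD, n = 3) for Cyba, 1.67 ± 0.20 for Ncf1, 0.658 ± 0.204 for Rac2, 0.323 ± 0.077 for Ncf4 and 0.0815 ± 0.0172 for Cybb. No neighbours in this order overlapped between mice. PS/E4H mice (n = 4) had 14.7 ± 0.7 FPKM of Cyba, 4.94 ± 0.47 of Ncf1, 2.21 ± 0.39 of Rac2, 1.03 ± 0.41 of Ncf4 and 1.01 ± 0.34 of Cybb. There Cybb had come up to the level of Ncf4, and the ranges of both overlapped, from 0.552 to 1.39 and from 0.788 to 1.63 FPKM.

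The antioxidant genes changed less. Of the 4, none was called in PS/E2H or PS/E3H mice, and Hmox1 alone was called in PS/E4H mice. Their median log2 fold change was 0.27, 0.45 and 0.61 on the APOE2, APOE3 and APOE4 backgrounds, beside 1.05, 1.24 and 1.75 for the 5 oxidase genes. Hmox1 (chromosome 8, 75093621 to 75100589, plus strand) encodes heme oxygenase, which splits heme into biliverdin, iron and carbon monoxide.

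Hmox1 was at 5.44, 6.22 and 6.50 CPM in E2H mice and at 9.07, 7.88, 13.9 and 7.36 CPM in PS/E2H mice. The APOE3 pair had 6.88, 5.55 and 5.15 CPM against 8.48, 9.99, 12.4 and 14.2 CPM. The APOE4 pair had 4.55, 5.41 and 6.50 CPM against 17.5, 11.1, 10.1 and 13.3 CPM. On each background all PS19 mice lay above all parental mice. The log2 fold change was 1.25 ± 0.20 (SE; adjusted p = 0.00355) in PS/E4H mice. It was 0.92 ± 0.19 in PS/E3H mice, which passed on p (adjusted p = 0.0223) but stayed under the 2-fold limit, and 0.65 ± 0.22 (adjusted p = 0.281) in PS/E2H mice.

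Slc7a11 (chromosome 3, 49892526 to 50443614, minus strand) encodes xCT, the cystine carrier of the cystine/glutamate exchanger that feeds glutathione synthesis. Gclm (chromosome 3, 122245557 to 122270732, plus strand) encodes the modifier subunit of glutamate-cysteine ligase, the first enzyme of that synthesis. Promoter windows of both, over the same bases around the RefSeq start, are shown as the antioxidant genes whose window held a searched motif (chr3:122245307-122245586, plus strand, and chr3:50443584-50443863, minus strand; RefSeq, GRCm38.p6). Capitals mark the antioxidant response element core TGACNNNGC on the opposite strand of Gclm at -134. In Slc7a11 they mark 2 matches to an ATF4 motif, TGATGNAA, at -66 and, on the opposite strand, at -47, and the letters GAGGAA at +19.
Gclm: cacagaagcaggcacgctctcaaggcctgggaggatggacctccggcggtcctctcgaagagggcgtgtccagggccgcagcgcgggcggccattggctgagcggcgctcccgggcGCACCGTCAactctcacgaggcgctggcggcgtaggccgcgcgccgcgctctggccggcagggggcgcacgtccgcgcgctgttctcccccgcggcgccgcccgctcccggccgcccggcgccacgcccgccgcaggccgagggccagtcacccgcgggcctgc
Slc7a11: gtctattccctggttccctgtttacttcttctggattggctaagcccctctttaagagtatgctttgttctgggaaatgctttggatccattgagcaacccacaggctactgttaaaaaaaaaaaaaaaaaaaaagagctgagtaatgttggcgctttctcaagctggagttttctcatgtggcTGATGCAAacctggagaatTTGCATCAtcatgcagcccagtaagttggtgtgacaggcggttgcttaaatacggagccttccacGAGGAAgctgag
TGACNNNGC occurred in 12.4% and TGATGNAA in 3.97% of all windows. The window of Nqo1 held none of the 4 motifs, and Hmox1 has no window in the table used.

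In parental mice Slc7a11 lay between 28.8 and 48.9 CPM. PS/E4H mice had 78.3, 72.3, 43.4 and 66.9 CPM, against 38.5, 40.7 and 43.8 CPM in E4H mice, so that PS/E4H 3 fell within the parental range. Its log2 fold change there was 0.67 ± 0.16 (SE; adjusted p = 0.0224), under the 2-fold limit. In PS/E3H and PS/E2H mice it was 0.41 ± 0.16 (adjusted p = 0.173) and 0.31 ± 0.18 (adjusted p = 0.613).

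Gclm was the steadiest of the 9 genes. E4H mice had 57.7, 56.7 and 56.8 CPM and PS/E4H mice 67.2, 66.5, 62.9 and 70.1 CPM, so the groups did not overlap although the change was small (log2 fold change 0.23 ± 0.06, adjusted p = 0.0229). In the other pairs the groups overlapped, with log2 fold changes of 0.11 ± 0.07 (adjusted p = 0.407) in PS/E3H and 0.036 ± 0.087 (adjusted p = 0.939) in PS/E2H mice. Exons of Gclm overlap Gm6061 on the same strand and Gm17494 on the other, so its counts are uncertain to that degree.

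Nqo1 (chromosome 8, 107388225 to 107403206, minus strand), which encodes a quinone reductase, passed the test on no background. It lay between 4.04 and 5.63 CPM in parental mice and between 4.77 and 9.52 CPM in PS19 mice. Within the range of their parental line lay 3 of 4 PS/E2H mice, 1 PS/E3H mouse and 1 PS/E4H mouse. Its log2 fold changes were 0.24 ± 0.21 (SE; adjusted p = 0.782), 0.50 ± 0.19 (adjusted p = 0.16) and 0.55 ± 0.22 (adjusted p = 0.114). With single mice left out, the edgeR adjusted p ranged from 0.651 to 0.968, 0.0215 to 0.393 and 0.0253 to 0.329. The change stayed under the 2-fold limit in each of these fits. The interval in PS/E4H mice, from 0.071 to 1.03, did not exclude a 2-fold rise.

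**Figure D3:**
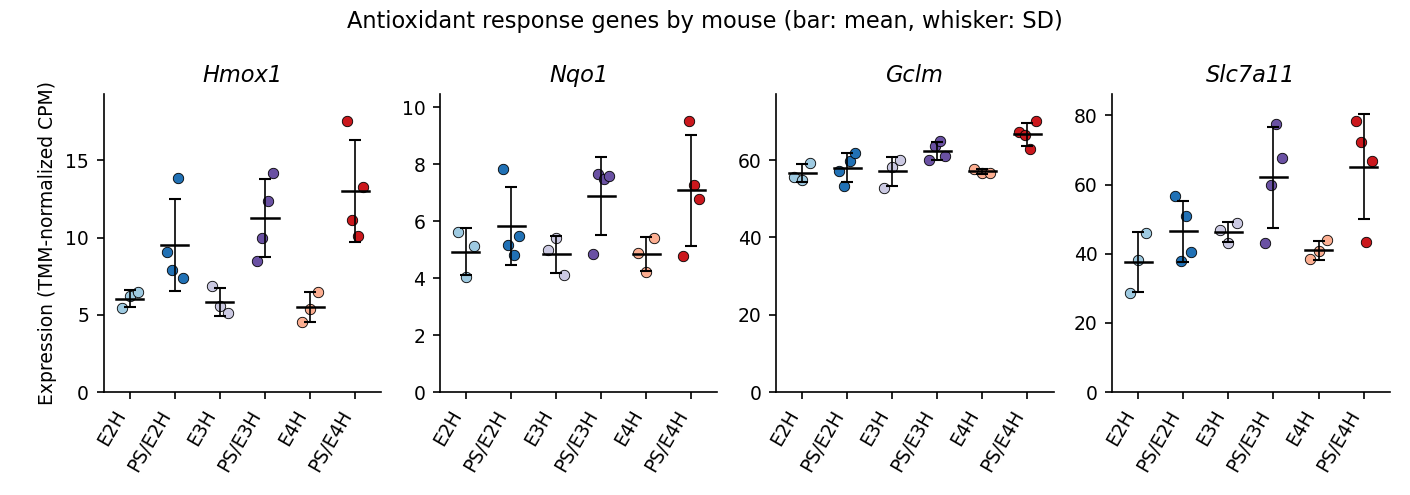
TMM-normalized CPM (y axis, starting at 0) of the 4 antioxidant genes in the 6 groups (x axis); points are mice, bars are group means and whiskers are SD. Hmox1 is higher in every PS19 mouse than in its parental line, Gclm stays between 52.9 and 70.1 CPM, and PS19 mice overlap the parental mice for Nqo1 and Slc7a11, most of all in the APOE2 pair, where 3 of 4 PS/E2H mice for Nqo1 and 2 of 4 for Slc7a11 lie within the E2H range.

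Per length, Gclm was the highest of the antioxidant genes, at 8.39 ± 0.10 FPKM (SD, n = 3) in E4H and 9.78 ± 0.62 (n = 4) in PS/E4H mice. Hmox1, Nqo1 and Slc7a11 were alike in E4H mice, at 2.89 ± 0.50, 2.88 ± 0.34 and 2.72 ± 0.17 FPKM with overlapping ranges. In PS/E4H mice Hmox1 reached 6.86 ± 1.80 FPKM, and Slc7a11 and Nqo1, at 4.33 ± 1.04 and 4.20 ± 1.12, again overlapped.

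The genes that complete these pathways were followed in 60 further genes of 6 lists. In PS/E2H mice 1 of the 57 tested was called higher, in PS/E3H mice 5 of 56 and in PS/E4H mice 7 of 56, and none was called lower. Over all genes tested the shares called higher were 0.451%, 1.2% and 2.4%. Without the limit on fold 2, 13 and 27 of the listed genes were higher, against 0.669%, 3.35% and 8.62% of all genes. The median log2 fold change of the listed genes was 0.037, 0.20 and 0.29. In PS/E2H mice 0 of these genes were called without E2H 1, E2H 3, PS/E2H 1 or PS/E2H 3. In PS/E3H mice 3 were called without E3H 1, E3H 2 or E3H 3.

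Among 15 partners of the oxidase, the genes called were Hvcn1 and Vav1. Hvcn1, the proton channel that balances the charge the oxidase moves, rose by 1.31, 2.13 and 2.03 on the log2 scale on the APOE2, APOE3 and APOE4 backgrounds (edgeR adjusted p = 0.0213, 0.00416 and 0.000396). Vav1, an exchange factor that loads Rac, was called in PS/E3H and PS/E4H mice at 1.24 and 1.46, and passed in PS/E2H mice at 0.78 without the limit on fold.

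Rac1, the widely expressed Rac GTPase, lay between 302 and 364 CPM in all mice, and its log2 fold changes were -0.049, -0.031 and -0.015 (adjusted p = 0.904, 0.826 and 0.908). Nox1, Nox3 and Noxa1 had too few counts to be tested in any pair, and Noxa1 was at 0 in all 21 mice. Per length, Nox4 had 0.0629 FPKM in PS/E4H mice beside 1.01 FPKM of Cybb.

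Of the 6 genes that control NRF2 activity, Nfe2l2, which encodes NRF2, rose by 1.01 ± 0.09 (log2, SE) in PS/E4H mice (adjusted p = 0.00018). It stayed under the 2-fold limit in PS/E3H mice at 0.67 (adjusted p = 0.0249), and gave 0.40 (adjusted p = 0.225) in PS/E2H mice. Maff, a small MAF protein that pairs with NRF2, was called in PS/E3H mice at 1.13 and in PS/E4H mice at 1.76. In the mouse PS/E2H 4 Maff was at 14.3 CPM while the other PS/E2H mice had 2.58 to 3.24 CPM. That mouse also had the lowest P2ry12 of its group, 17.8 CPM. Keap1 gave log2 fold changes of 0.037, 0.14 and 0.15 (adjusted p from 0.172 to 0.952).

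Of the 17 glutathione and thioredoxin genes, 9 were higher in PS/E4H mice without the limit on fold, 2 in PS/E3H and 0 in PS/E2H mice. The shares of all genes tested were 8.62%, 3.35% and 0.669%. Prdx6, a peroxiredoxin, was the one called, at 1.07 (adjusted p = 4.37e-05) in PS/E4H mice. Gclc, the catalytic partner of Gclm, gave 0.039, 0.073 and 0.13 (adjusted p = 0.938, 0.62 and 0.153), and Txnrd1, thioredoxin reductase, 0.020, 0.066 and 0.12 (adjusted p = 0.968, 0.709 and 0.158). Srxn1, sulfiredoxin, passed in PS/E4H mice at 0.21 (adjusted p = 0.0288). The metallothioneins Mt1 and Mt2 were called in PS/E3H mice at 1.196 and 1.59 and in PS/E4H mice at 1.09 and 1.40.

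Markers of several cell types moved with the 9 genes. The 12 microglia markers summed to 796 to 950 CPM in PS/E4H mice against 439 to 467 CPM in E4H mice, to 611 to 865 CPM in PS/E3H against 448 to 480 CPM in E3H mice, and to 492 to 804 CPM in PS/E2H against 440 to 552 CPM in E2H mice. Of these, 10, 5 and 1 of 12 were higher without the limit on fold in the APOE4, APOE3 and APOE2 pairs, and 3, 1 and 0 were called. Of all genes tested, 8.62%, 3.35% and 0.669% were higher without that limit, and 2.4%, 1.2% and 0.451% were called higher. In the same order 2, 1 and 0 of 6 markers of meninges and perivascular macrophages were called, with Mrc1 at 1.41 in PS/E4H mice. Of 6 astrocyte markers, 2, 1 and 1 were called, with Gfap at 3.08, 2.66 and 2.30. Without the limit on fold, 3 of 6 neuron markers were lower and 1 higher in PS/E4H mice. The share of all genes that were lower in this test was not counted, so the lower neuron markers have no background beside them. Of 4 oligodendrocyte markers, 3, 4 and 0 were higher without that limit in PS/E4H, PS/E3H and PS/E2H mice. The T cell marker Cd3g was called in PS/E4H mice, no endothelial or red cell marker passed on any background, and none of these markers was at 0 in all mice. Their part in the levels of the 9 genes was not tested.

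The 9 genes were also set against the microglia markers, mouse by mouse. The mean log2 CPM of the 12 markers was 0.28, 0.47 and 0.76 higher in PS19 mice on the APOE2, APOE3 and APOE4 backgrounds (exact permutation p = 0.257, 0.0571 and 0.0286). After subtraction of that mean in each mouse, Cybb was still higher in PS19 mice, by 1.95, 2.32 and 2.81 (log2). Cyba was higher by 0.79, 0.96 and 1.19, and Ncf1 by 0.79, 0.68 and 0.80. For these 3 genes all PS19 mice lay above all parental mice on each background, and of the 9 genes 4, 4 and 6 did so, against 1.54%, 1.69% and 1.35% of all genes with counts in every mouse of the pair. Rac2 had differences of 0.75, 0.48 and 1.02 and Ncf4 of 0.56, 0.68 and 0.86, with overlapping groups for Rac2 in the APOE3 pair and for Ncf4 in the APOE2 and APOE3 pairs. Gclm had differences of -0.25, -0.34 and -0.54, and its groups did not overlap in the APOE3 and APOE4 pairs, where 47.6% and 72.4% of all genes lay below the parental mice in the same way.

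Nqo1 and Slc7a11 had differences between -0.25 and 0.032 on this scale. Those of Hmox1 were 0.33, 0.45 and 0.47, with overlapping groups in the APOE2 pair alone. None of the 27 differences passed after Benjamini-Hochberg adjustment, since a two-sided exact permutation test of 4 mice against 3 cannot go below p = 0.0286 and the smallest adjusted p was 0.0551. At an unadjusted p under 0.05 there were 4, 4 and 5 of the 9 genes above on the APOE2, APOE3 and APOE4 backgrounds, against 0.941%, 1.07% and 1.03% of all genes. There were 0, 0 and 1 below, against 2.18%, 16% and 60.6%. With the 4 markers that are not tied to the homeostatic state, Cybb had 1.62, 1.96 and 2.34, Cyba 0.46, 0.60 and 0.72, and Ncf1 0.46, 0.32 and 0.33, and the groups of Cyba then overlapped in the APOE2 pair. Rac2 came to 0.42, 0.12 and 0.55, Ncf4 to 0.23, 0.32 and 0.39, and Hmox1 to -0.0031, 0.085 and -0.0020. Groups then also overlapped for Rac2 in the APOE2 pair, Ncf4 in the APOE4 pair and Hmox1 in the APOE3 and APOE4 pairs. An unadjusted exact p under 0.05 was left above for Cybb (APOE2), Cyba and Ncf1 (APOE3), and Cybb, Cyba and Rac2 (APOE4). Below, it was left for Gclm (APOE4). The share of all genes was not counted with these 4 markers. Nqo1, Slc7a11 and Gclm had differences from -1.01 to -0.30. The part that cell number and cell state play in these values was not tested.

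**Figure D4:**
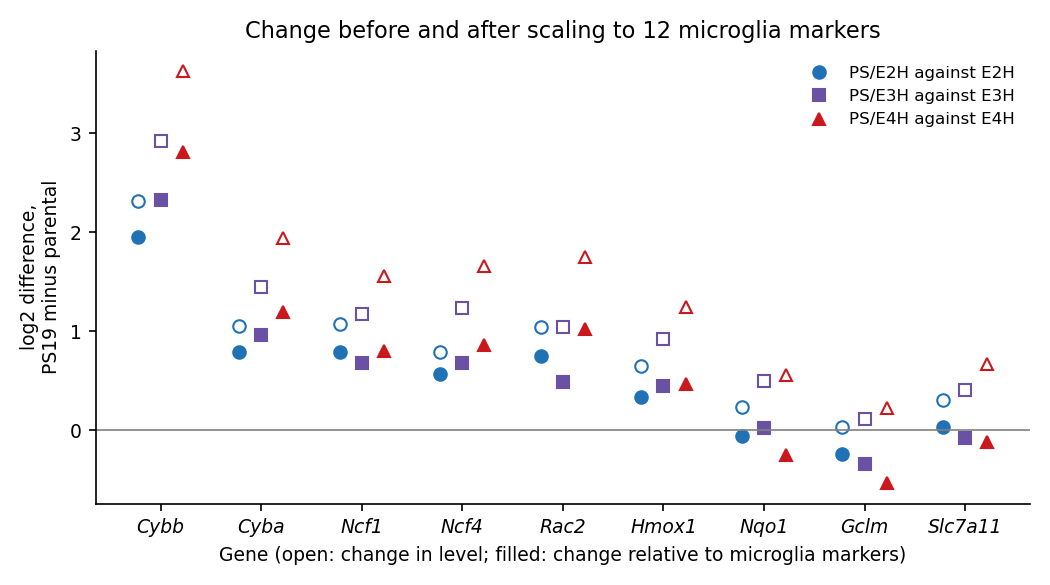
Difference in log2 level between PS19 and parental mice (y axis) for each of the 9 genes (x axis), as fitted by edgeR (open symbols) and relative to the mean of 12 microglia markers (filled symbols); circles, squares and triangles stand for the APOE2, APOE3 and APOE4 backgrounds. Cybb stays between 1.95 and 2.81 after scaling, while Gclm falls below 0 on each background.

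The fitted change in PS19 mice was largest on the APOE4 background for all 9 genes, and this was tested as a difference of changes. None of the genes tested passed at an adjusted p under 0.05 in any of the 3 interaction fits of edgeR, and none of the 9 genes passed with DESeq2. For PS/E4H over E4H minus PS/E2H over E2H, all 9 differences were positive and 4 of the 9 had an unadjusted p under 0.05, against 10.1% of 22031 genes. These were Cyba with 0.89 ± 0.26 (log2, SE; adjusted p = 0.342), Ncf1 with 0.48 ± 0.16 (adjusted p = 0.366), Rac2 with 0.70 ± 0.28 (adjusted p = 0.431) and Cybb with 1.31 ± 0.57 (adjusted p = 0.47).

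The other interaction fits gave 0 of the 9 genes at an unadjusted p under 0.05, against 5.72% of genes for APOE2 minus APOE3 and 3.81% for APOE4 minus APOE3. For Cybb the difference between the APOE4 and APOE3 backgrounds was 0.70, with an interval from -0.43 to 1.82. A difference of that size was within the error of 3 and 4 mice a group.

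Between APOE lines, none of the 9 genes was called by edgeR or by DESeq2 in any of 6 comparisons. Among all genes tested, 0.144% were called for E2H against E3H, 0.1% for E4H against E3H and 0.187% for E4H against E2H. Among PS19 mice the shares were 0.108% for PS/E2H against PS/E3H, 0.0197% for PS/E4H against PS/E3H and 0.109% for PS/E4H against PS/E2H. In these 6 comparisons 0, 2, 0, 1, 0 and 4 of the 9 genes had an unadjusted p under 0.05, against 14.1%, 6.67%, 12.4%, 11.7%, 6.51% and 12.3% of all genes tested.

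Cybb was lower in E4H than in E3H mice by a log2 fold change of -0.82 (interval -1.54 to -0.094, adjusted p = 0.677), and the 3 mice of each line did not overlap. Slc7a11 was the other gene, at -0.18 (adjusted p = 0.687). In PS/E2H against PS/E3H mice Slc7a11 had -0.41 (adjusted p = 0.42). In PS/E4H against PS/E2H mice the 4 genes were Cyba at 0.42, Ncf1 at 0.24, Slc7a11 at 0.48 and Gclm at 0.19, with adjusted p from 0.299 to 0.383. The PS/E4H mice lay above the PS/E2H mice without overlap for Cyba, Ncf1 and Gclm. All E4H mice lay below the E3H mice for Ncf1 as well as Cybb, and below the E2H mice for Ncf1. For pairs of APOE lines the share of all genes without overlap was not counted, so these separations are given as a description only. The E4H mice are also the reference of the PS/E4H comparison, so the low Cybb of E4H mice enters both.

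The genes whose log2 CPM followed each of the 9 most closely over the 21 mice were found among 22853 genes. For Ncf1 they were C1qa, C1qc and C1qb (Pearson r = 0.984, 0.984 and 0.983), and for Cyba Itgb5, Cd63 and Ctss (0.983, 0.981 and 0.979). Cybb was nearest to Mpeg1, C4b and Ctsc (0.969, 0.968 and 0.967), Rac2 to AU020206, Cd84 and Ctsh (0.962, 0.959 and 0.959) and Hmox1 to Plek, Itgam and Axl (0.958, 0.955 and 0.955). For Ncf4 they were A2m, Ripk1 and Itgb2 (0.922, 0.92 and 0.92). Nearest neighbours were looser for the other 3 antioxidant genes. Slc7a11 was nearest to Igfbp5, Adamtsl3 and Abcb1a (0.895, 0.888 and 0.886), Gclm to Rassf8, Mat2a and Gng12 (0.88, 0.877 and 0.872), and Nqo1 to Snx33, Pbx3 and Gpc3 (0.849, 0.824 and 0.811). These values pool PS19 and parental mice, whose levels differ, and are given as a description.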

How the data were processed

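Forebrain poly(A) libraries were stranded and sequenced as paired reads. Per the labels and the methods of the study, the authors trimmed reads with Cutadapt, aligned them with HISAT2 to GRCm38 (GRCm38.p5 in the submitters' processing notes), assembled transcripts with StringTie and compared groups with DESeq2; tool versions, and how gene counts were taken from StringTie, are not given in the sources used here. The deposited tables hold whole-number counts per gene and FPKM made by the authors. Mice were grouped by their titles.

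Counts were tested pairwise with edgeR 4.0.16 in R 4.3.3 (quasi-likelihood test, TMM, filterByExpr with a minimum count of 10 and a total of 15), on the mice of the 2 groups, with Benjamini-Hochberg adjustment over all genes. Interactions used the 4 groups of 2 APOE lines. Levels are TMM-normalized CPM over all 21 mice, and FPKM served to compare genes per length and in the limma alternatives. Levels relative to microglia markers were compared by exact permutation. Intervals are at 95%. The p-values of edgeR judge a group difference against the spread between these mice, estimated with information shared across genes. Exact p-values give the share of relabellings of these mice with a difference at least as large. In data simulated for PS/E4H against E4H over 20284 genes, 96% of 4-fold changes were recovered, with 10 false calls. The changed genes were drawn from those above a floor on mean CPM. The recovery therefore does not hold for genes of low CPM or for changes near the 2-fold limit.

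The 9 genes, the lists and the tests were chosen with earlier results of these data known. Named pathway genes are those called in at least 1 tau comparison, plus Rac1, Nfe2l2, Keap1, Gclc, Srxn1 and Txnrd1 (1 further pathway gene is not reported here and is left out of the counts); for each of the 9 genes, the 3 genes of highest Pearson r are named. Promoter windows are RefSeq (GRCm38.p6), with 6 of 9 genes matched; positions are GENCODE on GRCm38. DESeq2 1.42.0, RLE scaling, no filter, 1 fit of all groups, limma 3.58.1 on log2(FPKM + 0.1) or log2(FPKM + 1), a replicate block and leaving out each mouse were alternatives, and leaving out libraries with more Ddx3y than Xist was added after the data were seen.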

Additional observations from a re-analysis of the deposited data

Results flagged for a closer look

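Among 27 groups of 4 PS19 mice (9 genes on 3 backgrounds), 3 held a mouse whose gap to its nearest neighbour, as a share of the whole range, passed Dixon's 95% critical value for 4 samples. By chance about 1 in 20 groups would. Cybb was at 7.39 CPM in PS/E2H 3 while the other PS/E2H mice had 2.52 to 3.04 CPM, and that mouse was the highest of its group for all 5 oxidase genes and for Hmox1. Without it the log2 fold change of Cybb was 1.82 in place of 2.32. Ncf4 was at 3.61 CPM in PS/E4H 1 while the other PS/E4H mice had 1.78 to 1.94 CPM, and without that mouse its log2 fold change was 1.36 in place of 1.66. Nqo1 was at 4.85 CPM in PS/E3H 1 while the other PS/E3H mice had 7.49 to 7.65 CPM, and without that mouse its log2 fold change was 0.63 in place of 0.50.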

How the results depend on the processing

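Of 2166 values recomputed under another setting, 2106 stayed on the same side of the threshold or, for counts, within 1.5 times. Another 19 lost a call, 14 gained one and 27 counts moved by over 1.5 times. Of the called values 0 reversed direction, but values not called in either fit could change sign and still be among the 2106. The 2106 also hold levels relative to the microglia markers with a mouse left out, which could not pass the threshold. The 2 genes called of 9 in PS/E2H mice became 4 with DESeq2, with all 6 groups in 1 fit and with the replicate block, 1 without the filter on low counts and 0 with limma on log2(FPKM + 1), and 1 to 2 when single mice were left out. The 3 in PS/E3H mice became 5 with DESeq2, 1 with limma on log2(FPKM + 1) and 1 to 6 when single mice were left out. The 6 in PS/E4H mice became 2 with limma on log2(FPKM + 1) and 5 with the replicate block, where Ncf4 had adjusted p = 0.057, and stayed at 6 in all other settings but the one without the limit on fold. Adding 1 FPKM understates changes of genes near or under that level.

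Of the other pathway genes, the 1 called in PS/E2H mice became 2 without the limit on fold and 0 with limma on log2(FPKM + 1), and ranged from 0 to 1 when single mice were left out. The 5 in PS/E3H mice became 13 without the limit on fold, 3 with limma on log2(FPKM + 1) and 3 to 5 when single mice were left out, and the 7 in PS/E4H mice became 27 without that limit, 4 with limma on log2(FPKM + 1) and 6 to 8 when single mice were left out. No call was made among the 9 genes between APOE lines or in the interactions under any setting run. Relative to the microglia markers none passed with 12 or with 4 markers, and with a mouse left out the exact test cannot reach an adjusted p under 0.05, so those settings say nothing.

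Same-numbered mice did not deviate together: in the 3 tau comparisons their correlations lay between -0.048 and 0.095, and 5, 2 and 0 of 6 mice in the APOE2, APOE3 and APOE4 pairs correlated best with their own number, a hint from the data and not from the design, so the numbers were not taken to pair the mice. The setting without the libraries in which Xist exceeds Ddx3y could not be fitted, because too few mice are left.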
